A study of Mus musculus with 6 samples.

Results

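Hemk1, Ccdc136 and Ctnnal1 are 3 protein-coding genes of the 36811 in the deposited expression table of mouse regulatory T cells (Treg). They were picked because their values in the cKO-labelled libraries and in the WT-labelled libraries do not overlap and because the group means differ at least 2-fold. The expression values themselves therefore chose the genes, and their difference between the groups is given as a description with no test. Treg were sorted from the spleen of C57BL/6 mice aged 18 to 21 weeks by EGFP expressed from Foxp3, whose product is the defining transcription factor of Treg. The 3 libraries labelled cKO came from Bach2fl/fl Foxp3EGFP-Cre-ERT2 mice, whose floxed Bach2 can be removed by Cre. The 3 libraries labelled WT came from Bach2+/+ Foxp3EGFP-Cre-ERT2 mice, which carry the same Cre and reporter with intact Bach2. Cre-ERT2 needs tamoxifen to act, and any such treatment is not given in the sources used here. Bach2 encodes a transcriptional repressor of lymphocytes, and the comparison asks what its loss in Treg does to gene expression. Whether the libraries of each group came from separate animals is not labelled, so spreads and p-values refer to these libraries and may be technical.

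The 3 genes do not belong to 1 pathway. Hemk1 encodes a methyltransferase of mitochondria that, as studied in human cells, modifies a glutamine in the release factors that end mitochondrial protein synthesis. Ccdc136 encodes a coiled-coil protein that mouse sperm need to form the acrosome. Ctnnal1 encodes alpha-catulin, a relative of alpha-catenin and vinculin that, as studied in cultured cells, binds the guanine nucleotide exchange factor Akap13. No role of the 3 genes that is particular to Treg is part of this background.

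The promoters of the 3 genes are shown because Bach proteins, paired with small Maf proteins, bind elements with the AP-1 core. They run from 250 bases before to 50 after the start site on the gene's strand, 5′ to 3′, from RefSeq on build GRCm38.p6, while the submitters' notes name NCBIM37 for the values. Capitals mark the letters TGCTGA, the Maf-bound side of the element, on either strand. The core TGANTCA was searched on both strands too.
Hemk1, chr9:107338301-107338600, minus strand: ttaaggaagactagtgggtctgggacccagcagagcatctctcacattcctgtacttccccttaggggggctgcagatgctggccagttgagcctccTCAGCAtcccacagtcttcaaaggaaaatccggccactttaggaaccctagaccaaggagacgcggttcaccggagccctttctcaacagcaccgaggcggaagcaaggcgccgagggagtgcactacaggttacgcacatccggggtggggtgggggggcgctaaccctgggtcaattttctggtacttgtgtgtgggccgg
Ccdc136, chr6:29396325-29396624, plus strand: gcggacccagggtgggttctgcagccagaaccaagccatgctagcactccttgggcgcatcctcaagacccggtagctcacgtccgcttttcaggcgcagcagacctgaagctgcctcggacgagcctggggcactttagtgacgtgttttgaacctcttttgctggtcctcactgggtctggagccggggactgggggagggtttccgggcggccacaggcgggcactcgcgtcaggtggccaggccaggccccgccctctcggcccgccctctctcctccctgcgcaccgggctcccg
Ctnnal1, chr4:56865162-56865461, minus strand: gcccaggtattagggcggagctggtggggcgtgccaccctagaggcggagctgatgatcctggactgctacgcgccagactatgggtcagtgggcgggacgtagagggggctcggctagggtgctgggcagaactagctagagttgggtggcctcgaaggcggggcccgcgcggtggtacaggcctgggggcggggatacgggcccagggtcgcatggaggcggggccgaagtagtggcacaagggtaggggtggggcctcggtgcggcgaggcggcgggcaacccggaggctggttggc
The core TGANTCA was found in none of these windows, nor in the other 3 windows that RefSeq start sites give for Ccdc136. It is present in 7.81% of the 32851 promoter windows of the same length in the table. TGCTGA was found once, in the Hemk1 window on the opposite strand, and it is present in 19.5% of all windows. GC content was 58.7% in the Hemk1 window, 67.3% in the Ccdc136 window and 70.3% in the Ctnnal1 window, against a median of 52.7% over all windows. The fourth Ccdc136 window, at a start site further downstream, had 42.7%.

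Expression is given in FPKM as deposited by the authors, a unit that corrects a gene's fragments for its length and for the library's total. Sequencing depth is unknown, and a scale of 3050000 to 5020000 fragments per library was estimated from the steps between low values. The step was sought only within a preset range, which bounds the scale that could come out. Pairwise correlations of the 6 libraries lay between 0.881 and 0.915 on the log2(FPKM + 1) scale. Bach2, the targeted gene, did not stand lower under the cKO label. It stood at 7.88, 9.19 and 6.44 FPKM across cKO 1, 2 and 3, against 3.29, 8.25 and 4.80 FPKM across WT 1, 2 and 3 (limma, Benjamini-Hochberg adjusted p = 0.925). Since FPKM sums over a gene and the floxed exons are not given, Bach2 does not check the labels, on which all directions below rest. Foxp3 was present in all 6 libraries, at 7.26 ± 1.93 FPKM in the cKO-labelled libraries and 6.56 ± 1.24 FPKM in the WT-labelled libraries (SD, n = 3 each). All 7 markers of Treg and CD4 T cells were tested, and their sum lay between 2627 and 3846 FPKM in the cKO-labelled libraries and between 2485 and 3413 FPKM in the WT-labelled libraries. Most of this sum was Tnfrsf18.

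Hemk1 (ENSMUSG00000032579, chromosome 9) was the most highly expressed of the 3. It stood at 46.3, 55.5 and 44.6 FPKM across cKO 1, 2 and 3, against 20.3, 21.1 and 19.7 FPKM across WT 1, 2 and 3. All the cKO-labelled libraries lay above all the WT-labelled libraries, and cKO 2 was the highest. The means were 48.8 ± 5.85 FPKM in the cKO-labelled libraries and 20.4 ± 0.670 FPKM in the WT-labelled libraries (SD, n = 3 each), a ratio of 2.40. The lowest value labelled cKO was still 2.12 times the highest labelled WT. Of the 3 genes Hemk1 had the smallest fold and the narrowest spread in the WT-labelled libraries, with a coefficient of variation of 11.98% in the cKO-labelled libraries and 3.29% in the WT-labelled libraries. Its mean over the 6 libraries was above that of 70.6% of the genes tested.

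Ccdc136 (ENSMUSG00000029769, chromosome 6) stood at 5.42, 4.54 and 5.83 FPKM across cKO 1, 2 and 3, against 0.975, 1.14 and 0.881 FPKM across WT 1, 2 and 3. The groups did not overlap, and cKO 2, which was highest for Hemk1, was the lowest of its group here. The means were 5.26 ± 0.660 FPKM in the cKO-labelled libraries and 0.9998 ± 0.133 FPKM in the WT-labelled libraries (SD, n = 3 each), a ratio of 5.26. The closest pair of libraries differed 3.97-fold. The coefficients of variation were alike, at 12.5% in the cKO-labelled libraries and 13.3% in the WT-labelled libraries.

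Ctnnal1 (ENSMUSG00000038816, chromosome 4, which also carries Bach2) went the other way. It stood at 0.395, 0.422 and 0.433 FPKM across cKO 1, 2 and 3, against 2.34, 3.05 and 3.42 FPKM across WT 1, 2 and 3. Every library labelled cKO was below 1 FPKM and every library labelled WT above it. The means were 0.417 ± 0.0197 FPKM in the cKO-labelled libraries and 2.94 ± 0.551 FPKM in the WT-labelled libraries (SD, n = 3 each), so the mean was 7.05-fold lower in the cKO-labelled libraries. The closest pair differed 5.39-fold. Its mean over the 6 libraries exceeded that of only 7.74% of the genes tested, against 18.4% for Ccdc136.

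**Figure D1:**
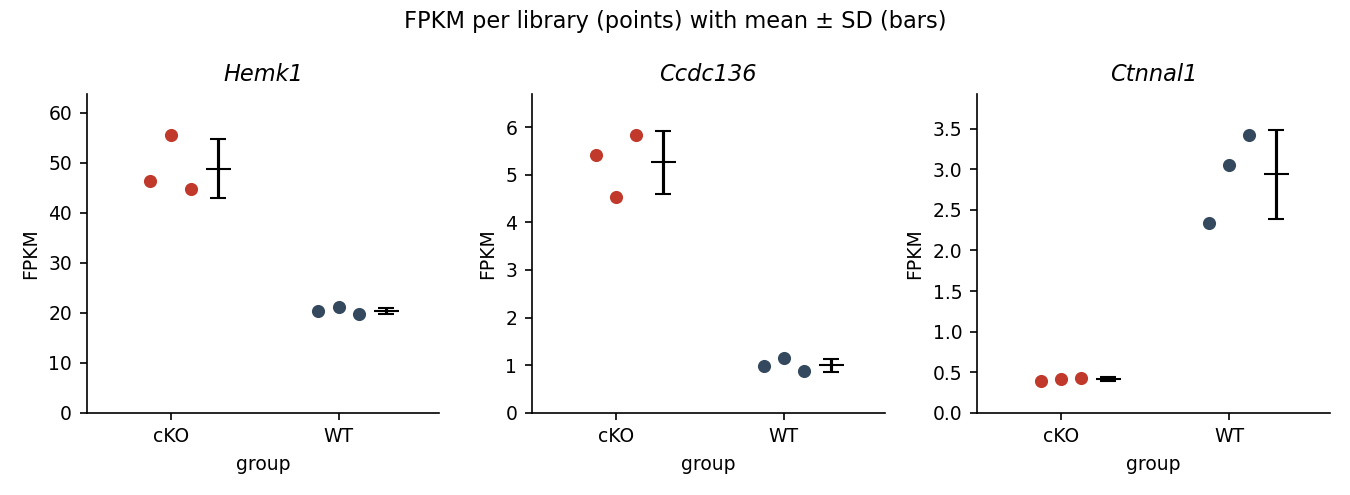
FPKM (linear axis from 0) of Hemk1, Ccdc136 and Ctnnal1 in the 3 libraries labelled cKO (red) and the 3 labelled WT (dark); points are libraries and bars give the mean ± SD. Hemk1 lies at 44.6 to 55.5 FPKM in cKO against 19.7 to 21.1 FPKM in WT, Ccdc136 at 4.54 to 5.83 against 0.881 to 1.14 FPKM, and Ctnnal1 at 0.395 to 0.433 against 2.34 to 3.42 FPKM.

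The logarithmic scale used for tests shrinks the low genes. As a difference of mean log2(FPKM + 1), Hemk1 stood 1.21 higher, Ccdc136 1.64 higher and Ctnnal1 at -1.46 in the cKO-labelled libraries. The added 1 FPKM is small beside the values of Hemk1 but exceeds every value of Ctnnal1 in those libraries. With 0.1 FPKM added instead, the differences were 1.25 for Hemk1, 2.29 for Ccdc136 and -2.54 for Ctnnal1, and with 5 FPKM added they were 1.08, 0.77 and -0.55 in the same order of genes. The order of the 3 genes by the size of their difference thus depends on the constant. The directions cannot depend on it, since the genes were picked for groups without overlap.

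How many fragments lie behind each value sets how far it can be read. A fragment's worth in FPKM was estimated per library from genes with a single transcript of at least 2000 bases, and the value of each gene was converted with the length of its longest coding transcript, 2192 bases for Hemk1, 3826 for Ccdc136 and 3664 for Ctnnal1. Hemk1 rested on about 366, 610 and 386 fragments in cKO 1, 2 and 3, against about 201, 141 and 172 in WT 1, 2 and 3. Its 95% Poisson intervals, which cover counting error only, reached down to 329 fragments in the cKO-labelled libraries and up to 231 in the WT-labelled libraries. Counts here and below also differ with the scale of each library. As FPKM, which corrects for scale, the bounds of Hemk1 reached down to 40.3 (cKO 3) and up to 24.9 (WT 2). With the shorter of its 2 coding transcripts, 453 bases, the values would be about 76, 126 and 80 fragments in cKO 1, 2 and 3, against 42, 29 and 36 in WT 1, 2 and 3, and the bounds, down to 60 and up to 56, still do not overlap. Hemk1 is thus the gene of the 3 least limited by depth.

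Ccdc136 rested on about 75, 87 and 88 fragments in cKO 1, 2 and 3, against about 17, 13 and 13 in WT 1, 2 and 3. The lowest Poisson bound was 59 fragments in the cKO-labelled libraries and the highest was 27 in the WT-labelled libraries. As FPKM the bounds of Ccdc136 reached down to 3.64 (cKO 2) and up to 1.94 (WT 2). At the shortest of its 7 annotated coding transcripts, 640 bases, the same values would be about 13, 15 and 15 fragments in the cKO-labelled libraries and 3, 2 and 2 in the WT-labelled libraries. The bounds then overlap, from 7 upwards in the cKO-labelled libraries and up to 9 in the WT-labelled libraries. Which transcripts are present is not given by a gene-level table, so the WT level of Ccdc136, and with it the size of the ratio, is imprecise.

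Ctnnal1 rested on about 5, 8 and 6 fragments in cKO 1, 2 and 3, against about 39, 34 and 50 in WT 1, 2 and 3. The Poisson bounds reached up to 15 fragments in the cKO-labelled libraries and down to 24 in the WT-labelled libraries. As FPKM the bounds of Ctnnal1 reached up to 0.928 (cKO 3) and down to 1.66 (WT 1). At the shorter of its 2 coding transcripts, 850 bases, the values would be 1, 2 and 1 fragments in the cKO-labelled libraries. They would be 9, 8 and 12 in the WT-labelled libraries, and the bounds, up to 7 and down from 3, overlap. For the longest transcript 1 fragment is worth 0.0756, 0.0544 and 0.0691 FPKM in cKO 1, 2 and 3. The SD of 0.0197 FPKM among these libraries is smaller than the worth of 1 fragment, so that SD does not measure the precision of the cKO level. The size of the Ctnnal1 ratio is accordingly less certain than its 3 near-equal cKO values make it look.

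**Figure D2:**
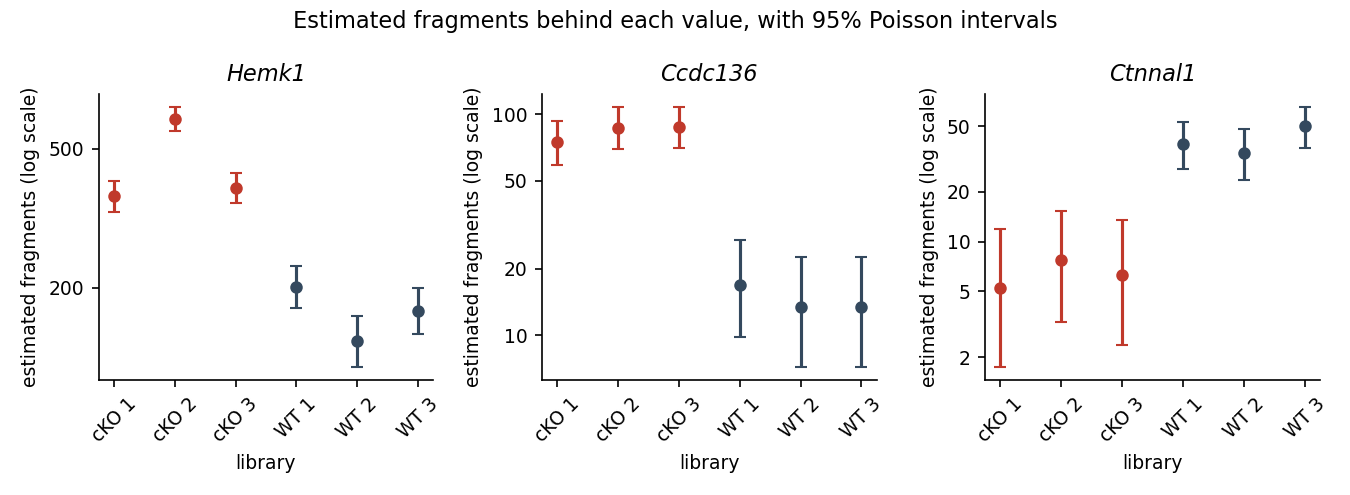
Estimated fragments (log axis) behind each value in the 6 libraries, from the longest coding transcript, with 95% Poisson intervals as bars; red is cKO and dark is WT. Hemk1 rests on 141 to 610 fragments over the 6 libraries, Ccdc136 on 13 to 17 and Ctnnal1 on 5 to 8 in the group where each is low.

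The 3 genes were picked from a larger set. Of the 11979 genes averaging at least 1 FPKM, 246 (2.05%) met the same rule of no overlap and a 2-fold ratio, 159 higher (1.33%) and 87 lower (0.726%) under the cKO label. Scaling the libraries to equal sums made this split 255 higher and 54 lower. Low expression was common among them: 67.5% of the 246 had a mean under 5 FPKM, against 27.1% of all genes tested, and 46 had at least 1 library listed at 0. Ccdc136 and Ctnnal1 belong to the low ones and Hemk1 does not. Just inside the 2-fold limit lay Ccdc17, with means of 4.51 FPKM in the cKO-labelled libraries and 2.25 FPKM in the WT-labelled libraries (2.002-fold). Just outside lay Il11ra1, with 4.51 and 2.26 FPKM in the same order of groups (1.997-fold).

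Among the 200 genes that met the rule with no library at 0, the ratio between the closest libraries of the groups had a median of 1.34. By this ratio Ctnnal1 ranked 2, Ccdc136 ranked 3 and Hemk1 ranked 10. By the ratio of means Ccdc136 ranked 5 and Hemk1 69 of 133 that were higher, and Ctnnal1 ranked 2 of 67 that were lower. Hemk1 thus ranked higher by the gap between libraries than by its ratio of means. The within-group SD on the log2(FPKM + 1) scale was 0.12 for Hemk1, 0.13 for Ccdc136 and 0.15 for Ctnnal1, whereas the median over genes of similar level, within 2-fold of the mean, was 0.25, 0.39 and 0.41. A smaller SD was found in 9.65% of the 3398 genes of similar level for Hemk1, in 3.37% of 3024 for Ccdc136 and in 4.91% of 2342 for Ctnnal1. The SD of Ctnnal1 pools 0.020 in the cKO-labelled libraries with 0.21 in the WT-labelled libraries. The former spread does not measure precision, as said above, so the low share for Ctnnal1 is not read as tightness. These ranks describe the way the genes were picked and are no test of it.

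**Figure D3:**
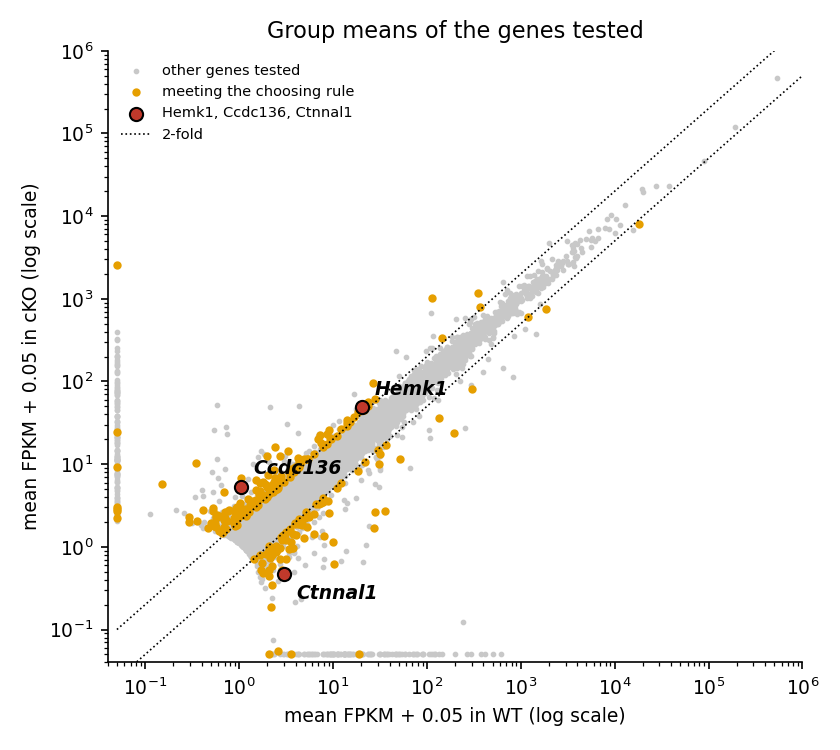
Mean FPKM + 0.05 in cKO against WT (both log axes) for the 11979 genes tested; orange points are the 246 genes that met the choosing rule, dotted lines mark 2-fold, and points at an edge have a group listed at 0. Ccdc136 and Ctnnal1 lie in the broad low end of the cloud, and Hemk1, at 48.8 FPKM in cKO against 20.4 FPKM in WT, in its narrower middle.

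In the fit over all genes by limma on log2(FPKM + 1), 3 genes passed a Benjamini-Hochberg adjusted p of 0.05 (0.025%), 1 higher (0.00835%) and 2 lower (0.0167%). An unadjusted p under 0.05 was found for 643 genes (5.37%), 430 higher (3.59%) and 213 lower (1.78%). That split was 770 higher and 96 lower with equal sums, 341 and 277 under quantile scaling and 360 and 277 under trimmed-mean scaling. The outcome of Hemk1, Ccdc136 and Ctnnal1 in this fit is not given, since the same values chose them.

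The neighbours of each gene on the chromosome were not part of the choice and could be tested. The 2 nearest protein-coding genes on each side were taken; 11 of these neighbours are reported, of which 7 averaged at least 1 FPKM. None of the 7 passed (limma, adjusted p from 0.846 to 0.997), and 1 of them, Cish, had an unadjusted p under 0.05, as 5.37% of all genes tested did. Groups did not overlap in 3 neighbours that were higher in the cKO-labelled libraries, against 6.96% of all genes tested.

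The 3 neighbours that were higher without overlap are all neighbours of Hemk1. Cish, which encodes an inhibitor of cytokine signalling that is induced by STAT5, lies next to Hemk1 on one side. It stood at 335, 355 and 416 FPKM across cKO 1, 2 and 3, against 234, 222 and 266 FPKM across WT 1, 2 and 3. Its log2 difference was 0.61 with a 95% interval from 0.28 to 0.95 before adjustment (limma, adjusted p = 0.846). Each library labelled cKO thus exceeded each labelled WT, but the difference did not pass over all genes.

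On the other side of Hemk1 lies 6430571L13Rik, on the opposite strand and pointing away from it. It stood at 2.16, 2.82 and 2.96 FPKM across cKO 1, 2 and 3, against 1.01, 1.71 and 1.97 FPKM across WT 1, 2 and 3, a log2 difference of 0.52 (limma, adjusted p = 0.925). Mapkapk3, a kinase of the p38 stress pathway next to Cish, stood at 96.6, 93.1 and 96.8 FPKM across cKO 1, 2 and 3, against 80.6, 88.1 and 77.8 FPKM across WT 1, 2 and 3. Its log2 difference was 0.22 (limma, adjusted p = 0.925), smaller than that of Hemk1, and neither of these genes passed. Cacna2d2, the other neighbour, was below the minimum with means of 0.744 FPKM in the cKO-labelled libraries and 0.270 FPKM in the WT-labelled libraries. It stood at 1.91, 0.179 and 0.143 FPKM across cKO 1, 2 and 3, against 0.507, 0.122 and 0.182 FPKM across WT 1, 2 and 3. The groups overlapped, and its higher mean rested on cKO 1 alone. Whether the values of this stretch move together by more than separate genes would was not tested.

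The neighbours of Ccdc136 that were tested overlapped between the groups. Calu, a calcium-binding protein of the secretory pathway, averaged 39.4 ± 1.94 FPKM in the cKO-labelled libraries and 39.1 ± 3.54 FPKM in the WT-labelled libraries (limma, adjusted p = 0.997). Atp6v1f, a subunit of the proton pump of acidic organelles, averaged 351 ± 51.0 FPKM in the cKO-labelled libraries and 288 ± 32.5 FPKM in the WT-labelled libraries (limma, adjusted p = 0.925). Flnc was listed at 0 in all 6 libraries and Opn1sw in 5 of them, so the nearest gene on either side of Ccdc136 gave nearly no signal.

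Around Ctnnal1, the adjacent gene Fam206a averaged 14.7 ± 2.37 FPKM in the cKO-labelled libraries and 13.7 ± 1.48 FPKM in the WT-labelled libraries, with overlap (limma, adjusted p = 0.974). Tmem245 averaged 4.70 ± 1.26 FPKM in the cKO-labelled libraries and 7.09 ± 2.09 FPKM in the WT-labelled libraries, with overlap (limma, adjusted p = 0.925). Frrs1l was listed at 0 throughout.

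**Figure D4:**
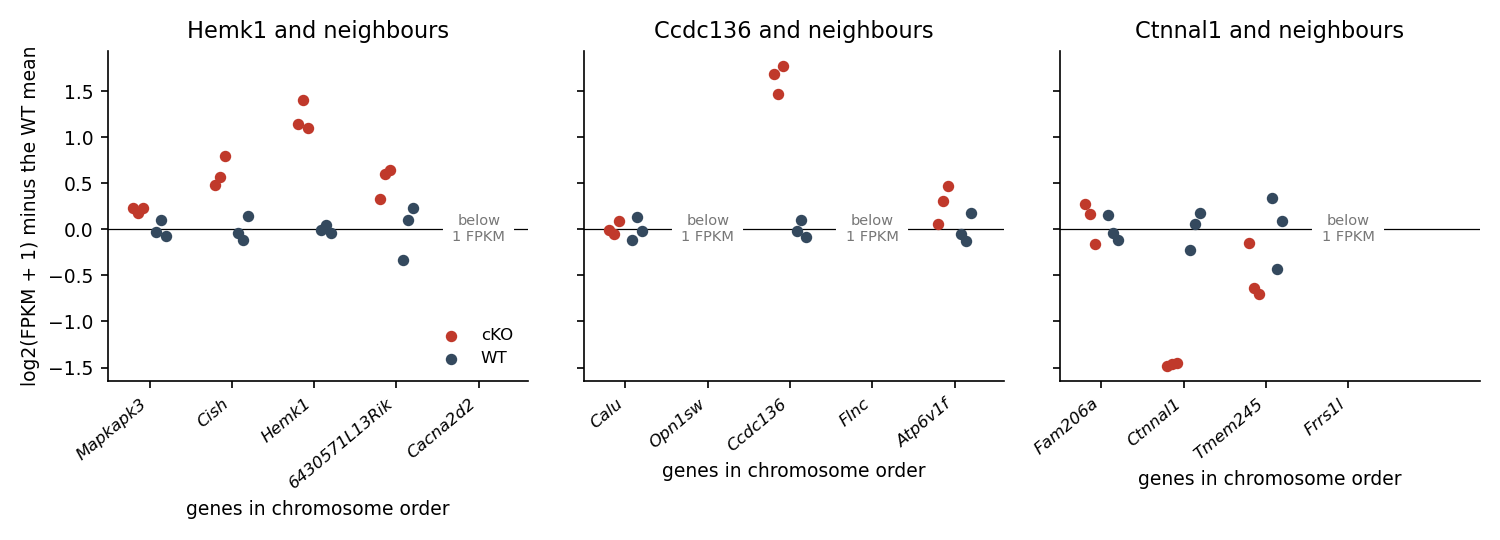
Each library's log2(FPKM + 1) minus the mean of the WT-labelled libraries for the 3 genes and 11 protein-coding neighbours in chromosome order; red points are cKO and dark points WT. The 3 neighbours of Hemk1 averaging at least 1 FPKM lie higher in cKO by 0.22 to 0.61, whereas those shown for Ccdc136 and Ctnnal1 overlap between groups.

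Of the genes listed for release factor methylation, mitochondrial or cytosolic, and for the end of mitochondrial translation, 8 of 9 were matched to the table and all 8 were tested. None passed in either direction (limma, adjusted p from 0.874 to 0.990), 1 was higher and 0 were lower at an unadjusted p under 0.05, and the median log2 difference was 0.05, against 0.03 over all genes tested. Groups did not overlap in 2 that were higher, Mtrf1 and Etf1, against 6.96% of all genes tested, and in 1 that was lower, Mtrf1l, against 3.75%. Mrpl58, a release factor built into the mitochondrial ribosome, averaged 211 ± 3.01 FPKM in the cKO-labelled libraries and 208 ± 10.3 FPKM in the WT-labelled libraries. Trmt112, a partner subunit of methyltransferases, averaged 38.6 ± 15.5 and 42.7 ± 15.7 FPKM in the same order of groups, Etf1, the cytosolic release factor, 33.0 ± 2.58 and 29.4 ± 0.818 FPKM, and Gfm2, which recycles mitochondrial ribosomes, 16.95 ± 2.35 and 16.2 ± 3.88 FPKM (SD, n = 3 each). N6amt1, the methyltransferase that modifies the cytosolic release factor, averaged 6.77 ± 1.70 FPKM in the cKO-labelled libraries and 4.91 ± 1.09 FPKM in the WT-labelled libraries, with overlap.

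The 2 release factors Mtrf1 and Mtrf1l of mitochondria had opposite signs, and they are named after their values were seen. Mtrf1 stood at 4.48, 4.88 and 5.48 FPKM across cKO 1, 2 and 3, against 2.95, 2.75 and 1.69 FPKM across WT 1, 2 and 3. Its groups did not overlap and its means differed 2.01-fold, so it meets the same rule as Hemk1, and its log2 difference of 0.80 did not pass (limma, adjusted p = 0.874). Mtrf1l stood at 11.3, 8.78 and 11.8 FPKM across cKO 1, 2 and 3, against 15.0, 21.5 and 11.8 FPKM across WT 1, 2 and 3. The highest value labelled cKO and the lowest labelled WT were nearly equal, and its log2 difference was -0.53 (limma, adjusted p = 0.925). Without WT replicate 2, its highest library, the difference was -0.31.

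Of 12 genes of the catenin and vinculin family and of the partners of alpha-catulin, 8 were tested and none passed (limma, adjusted p from 0.925 to 0.997; 0 at an unadjusted p under 0.05). Their median log2 difference was 0.09, and no gene of the list had groups without overlap. Rhoa, a small GTPase, averaged 239 ± 36.7 FPKM in the cKO-labelled libraries and 216 ± 14.3 FPKM in the WT-labelled libraries, and Akap13, the exchange factor that alpha-catulin binds, 167 ± 38.1 and 178 ± 40.0 FPKM in the same order of groups (SD, n = 3 each). Ctnnb1, beta-catenin, averaged 115 ± 25.9 FPKM in the cKO-labelled libraries and 105 ± 32.8 FPKM in the WT-labelled libraries, and Ikbkb, a kinase of the NF-kB pathway, 80.1 ± 4.97 and 88.0 ± 26.2 FPKM. Of the closest relatives, Ctnna1 averaged 14.4 ± 2.57 FPKM in the cKO-labelled libraries and 11.05 ± 2.17 FPKM in the WT-labelled libraries, and Vcl 1.07 ± 0.0846 and 1.02 ± 0.378 FPKM. Both overlapped between groups, and Ctnna2 and Ctnna3 were listed at 0 in all libraries. Neither of these relatives had a lower mean in the cKO-labelled libraries, where Ctnnal1 was low.

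The other genes of acrosome formation were mostly without signal. Of 12 listed, 6 were at 0 in all 6 libraries and 3 were tested, with none passing (limma, adjusted p from 0.925 to 0.984; 0 at an unadjusted p under 0.05) and a median log2 difference of 0.43, against 0.03 over all genes tested. This median is the value of Acrbp alone. Without WT replicate 2 the median was 0.18, then the value of Zpbp2, and that of Acrbp was 0.082. Spaca1 averaged 6.16 ± 1.89 FPKM in the cKO-labelled libraries and 3.86 ± 0.758 FPKM in the WT-labelled libraries, Acrbp 3.46 ± 1.33 and 2.37 ± 1.25 FPKM, and Zpbp2 2.84 ± 1.37 and 2.44 ± 0.345 FPKM in the same order of groups. All 3 overlapped between the groups, unlike Ccdc136.

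Genes whose levels across the 6 libraries were most like those of each member were taken by Pearson correlation on the log2(FPKM + 1) scale, as a description. For Hemk1 they were Syngr2 (r = 0.989), Fgl2 (0.984), a suppressive mediator of Treg, and Nmur1 (0.983). Syngr2 stood at 201, 211 and 191 FPKM across cKO 1, 2 and 3, against 160, 165 and 157 FPKM across WT 1, 2 and 3, so it follows the order of Hemk1, with cKO 2 highest, at a much smaller fold. For Ccdc136 they were Zfp558 (0.995), Asxl1 (0.995), a chromatin regulator, and Cenpa (0.994), the histone of centromeres. For Ctnnal1 they were Nsg2 (0.988), Spsb1 (0.988) and Igfbp4 (0.981), a secreted carrier of insulin-like growth factors. Igfbp4 stood at 80.7, 91.5 and 74.1 FPKM across cKO 1, 2 and 3, against 301, 313 and 294 FPKM across WT 1, 2 and 3. The 6 points of each correlation share libraries and the 2 groups, and 51 of 11978 genes reached r of 0.95 with Hemk1, 51 with Ccdc136 and 17 with Ctnnal1.

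Markers of other cells were read beside the members. Of 10 erythroid and platelet markers 8 had a higher mean in the cKO-labelled libraries, as Hemk1 and Ccdc136 did. The sum of the 10 lay between 255 and 514 FPKM in the cKO-labelled libraries and between 95.5 and 231 FPKM in the WT-labelled libraries, without overlap. Nearly all of this sum was globin (Hba-a1, Hba-a2, Hbb-bs and Hbb-bt). The platelet markers Pf4, Ppbp, Itga2b and Gp9 averaged below 1 FPKM in both groups and overlapped, so the sum does not describe platelets. Of 8 myeloid markers 6 had a higher mean, with sums of 212 to 891 FPKM in the cKO-labelled libraries and 182 to 312 FPKM in the WT-labelled libraries. The highest of these sums, in cKO 2, was mostly S100a8 (545 FPKM) and S100a9 (245 FPKM). The neutrophil marker Ly6g was listed at 0 in 4 of the 6 libraries. Of 6 CD8 T and NK cell markers 3 had a higher mean, with overlapping sums of 26.6 to 29.5 FPKM in the cKO-labelled libraries and 26.9 to 31.6 FPKM in the WT-labelled libraries. Most of each sum was Cd8b1, so this overlap says little of the other markers. The receptors Klrd1 and Klrb1c were lower without overlap, as 3.75% of all genes tested were, while Cd8a, Cd8b1, Ncr1 and Gzma overlapped between the groups. Klrd1 lay between 0 and 0.546 FPKM in the cKO-labelled libraries and between 1.35 and 3.46 FPKM in the WT-labelled libraries, and Klrb1c, which was below the minimum for the test, between 0.483 and 0.742 FPKM and between 0.866 and 1.504 FPKM in the same order of groups. The sums of the 5 B cell markers, mostly Cd79b, overlapped, at 112 to 154 FPKM in the cKO-labelled libraries and 102 to 144 FPKM in the WT-labelled libraries. The sums of the 6 endothelial and stromal markers overlapped as well, at 44.995 to 51.6 FPKM and 51.0 to 65.2 FPKM in the same order of groups, nearly all of it Pecam1, whose own values were lower without overlap under the cKO label, with Kdr, Col3a1 and Pdgfrb listed at 0 throughout. No marker passed (limma, adjusted p over all genes), and the part of these cells in the values of the 3 genes was not tested. In such bulk libraries fewer cells that express a gene and less RNA per cell cannot be told apart.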

How the data were processed

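Treg RNA was extracted from cells sorted by flow cytometry after CD4 enrichment, and SmartSeq2 libraries were sequenced on an Illumina instrument, according to the protocols in the labels. FastQC, cutadapt and HISAT2 with builds NCBIM37 and mm9, without versions, are named in the submitters' processing notes. The authors deposited FPKM values of 36811 genes in 6 libraries, from cuffnorm per the file's name; its annotation and strand setting are unknown here, so antisense reads cannot be told apart. Treg sorted by Bach2 level, which the design text names, were not analysed here; sample labels gave the groups.

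Symbols were matched by Ensembl identifier (31840 of 36811). Transcript lengths and neighbours came from GENCODE M21 on GRCm38, whose coordinates were not joined to the values. Fragments were estimated from the commonest lowest step of FPKM times length in single-transcript genes of at least 2000 bases, where 77.4% of 1187 low values lay within 0.1 of a whole multiple of it, values at the step itself included. The conversion is approximate, as the step was sought in a preset range and transcript mixtures and effective lengths are unknown. The limma test (version 3.58.1, R 4.3.3, two-sided, variance trend) was run on log2(FPKM + 1) of genes averaging at least 1 FPKM, Benjamini-Hochberg adjusted at 0.05. The procedure was tested on simulated data, with changes placed only in genes more highly expressed than Ccdc136 and Ctnnal1. Folds are ratios of mean FPKM. Tables were handled in Python 3.11.15.

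The members, lists and alternatives were chosen with earlier results of these data known. Named genes are the 3 members, Bach2, Foxp3, the neighbours and the up to 4 most expressed genes of each list. Named too are the 3 most correlated genes per member (without predicted genes, small RNAs and receptor segments) and the genes at the 2-fold limit. Others are named where a count of 5 or fewer, their role beside a member, their part of a marker sum or their listing at 0 called for it. Of the lists, Mtrfr found no match. A neighbour of Ctnnal1 is not reported here and was left out of the neighbours' counts, though not of the fit. As alternatives, the pseudocount was set to 0.1 or 5, the minimum to none or 5 FPKM and the scaling to quantile, trimmed-mean or equal sums; the variance trend was dropped, the replicate number was added as a block, and libraries were left out in turn.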

Additional observations from a re-analysis of the deposited data

How the results depend on the processing

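Under quantile, trimmed-mean and equal-sum scaling Hemk1 and Ccdc136 stayed higher and Ctnnal1 lower in the cKO-labelled libraries, and all 3 met the choosing rule. They met it with no filter and without each library too. Outside the scalings the directions and the lack of overlap could not change, since the genes were picked for groups without overlap. A minimum mean of 5 FPKM removes Ccdc136 and Ctnnal1 by construction, which leaves 1 of the 3 meeting the rule. The log2 difference of Hemk1 was 1.08 with a pseudocount of 5 and 1.37 with equal sums, where the median of all genes moved to 0.18 from 0.03. That of Ccdc136 was 2.29 with a pseudocount of 0.1 and 0.77 with 5, and that of Ctnnal1 was -2.54 and -0.55. Without 1 library the differences ranged from 1.12 to 1.27 for Hemk1, from 1.58 to 1.73 for Ccdc136 and from -1.58 to -1.38 for Ctnnal1.

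The 246 genes meeting the choosing rule became 527 with no filter and 80 with a minimum of 5 FPKM, and 365 to 489 without 1 library, since fewer libraries can overlap. Under quantile scaling 142 genes met the rule as higher and 99 as lower, and under trimmed-mean scaling 134 and 101. The count of calls by limma over all genes tested fell from 3 to 1 under the replicate block. Leaving out 1 library at a time gave 5 to 15, the most without WT replicate 2. The cause was not tested. No reported neighbour and no list gene passed under any alternative. Without 1 library the median log2 difference lay between -0.06 and 0.13 for the release factor list, between 0.0072 and 0.16 for the catenin list and between 0.18 and 0.65 for the acrosome list. The replicate numbers show no pairing. After each gene's group mean was subtracted, same-numbered libraries of the groups correlated at -0.06, -0.18 and -0.02. The block is therefore not read further, and with each number present in both groups it cannot change the members' differences. Depth limits Ctnnal1 most, then Ccdc136.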
